A study of Mus musculus with 1104 samples.

Results

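The 7 genes followed here are markers of B cells and of the plasma cells they give rise to: Cd22, Ms4a1, Cd79a, Cd79b, Pax5, Jchain and Mzb1. They were taken by name from the 20646 genes of the count table, and their levels were read at every time point in epididymal white fat (eWAT), inguinal white fat (iWAT), interscapular brown fat (BAT) and small intestine. The animals were wild type male C57BL/6 mice that received a diet with 60 kcal% fat from 8 weeks of age. Poly(A) RNA was sequenced from 13 organs, and 6 mice were measured per time point. The later groups, set against the 0 day group in each organ, were dissected after 1 and 3 days, 1 week, 10 days, and 2, 3, 4, 5, 6, 7, 8, 10 and 12 weeks of the diet, and in eWAT also after 16 and 20 weeks. No group of the same age without the diet entered, so that the effects of age and of time on the diet cannot be told apart. Each value comes from a piece of whole tissue, in which fewer cells of a type and less RNA per cell cannot be told apart either.

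B cells recognise antigen with a receptor made of a membrane immunoglobulin and a signalling pair, CD79A and CD79B, and the coreceptor CD22 dampens its signal. PAX5 is the transcription factor that holds B cell identity, and it is switched off when a B cell becomes a plasma cell that secretes antibody. In fat, B cells gather in small lymphoid clusters and, in the inguinal depot, in an embedded lymph node, while the intestinal wall holds many plasma cells that release dimeric IgA into the lumen. Glycam1, a mucin of the high endothelial vessels through which lymphocytes enter lymph nodes, served as the measure of node tissue in a dissected piece.

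Promoter windows from RefSeq (build GRCm38.p6, 250 bases before to 50 bases after the annotated start) were found for 5 of the 7 genes. They are shown for Cd22, whose course in eWAT differed from that of the other members, for Cd79a as a subunit of the receptor, and for Jchain, the most abundant member in the intestine. Each is written 5′ to 3′ on the strand of its gene, and capitals mark matches to the motifs searched on both strands: the octamer ATGCAAAT of POU factors, TCCC and GGGA with 2 bases between them for EBF1 and GAGGAA of PU.1.
Cd22, chr7:30878979-30879278, minus strand: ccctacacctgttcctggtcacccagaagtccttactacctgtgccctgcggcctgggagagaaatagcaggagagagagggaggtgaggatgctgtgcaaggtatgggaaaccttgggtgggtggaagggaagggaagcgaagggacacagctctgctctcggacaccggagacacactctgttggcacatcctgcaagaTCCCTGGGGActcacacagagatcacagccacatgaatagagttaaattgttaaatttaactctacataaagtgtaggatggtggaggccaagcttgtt
Cd79a, chr7:24897247-24897546, plus strand: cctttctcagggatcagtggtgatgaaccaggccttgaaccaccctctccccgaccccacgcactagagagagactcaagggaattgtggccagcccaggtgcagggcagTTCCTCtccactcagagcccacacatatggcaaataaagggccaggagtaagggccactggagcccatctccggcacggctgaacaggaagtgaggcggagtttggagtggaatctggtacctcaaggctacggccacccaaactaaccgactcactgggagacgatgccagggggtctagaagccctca
Jchain, chr5:88527848-88528147, minus strand: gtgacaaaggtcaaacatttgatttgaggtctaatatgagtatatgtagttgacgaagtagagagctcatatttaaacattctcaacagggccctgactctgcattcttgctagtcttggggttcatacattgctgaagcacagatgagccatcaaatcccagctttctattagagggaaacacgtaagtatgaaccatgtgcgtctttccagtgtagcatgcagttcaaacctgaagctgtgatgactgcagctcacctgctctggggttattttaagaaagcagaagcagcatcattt

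The Cd22 window held the EBF1 letters from base 202, counted from its 5′ end, a motif present in 0.904% of 32851 promoter windows of the same length. The Cd79a window held the PU.1 letters on the opposite strand from base 111, which 28.3% of the windows also held. The windows of Jchain and Pax5 held none of the 3 motifs, and the octamer was present in 1.74% of all windows. A match of letters is a description of the sequence and not a site of binding.

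Levels are given in CPM, counts scaled to the library total, as the lowest, median and highest of the 6 libraries of a group. Totals ran from 9686196 to 27036098 counts in the 348 libraries of the 4 organs, with a median of 13516874, so that 1 CPM stood on about 13.5 counts and low members carry large counting error. Changes are log2 fold changes ± SE from edgeR's quasi-likelihood test over all genes kept, n = 6 per time point, and a gene is said to have risen or fallen where its Benjamini-Hochberg adjusted p was under 0.05. Over all genes the median log2 fold change from 0 days was farthest from 0 in eWAT at 3 days, at 0.04. Members with under 3 counts over a whole group are below what this depth can show.

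In eWAT the members rose in stages over the times tested: Cd22 alone at 8 weeks, Cd22 and Jchain at 12 weeks, and Ms4a1, Cd79a, Cd79b and Pax5 as well at 16 and 20 weeks. Cd22 had medians of 1.05 CPM at 0 days, 1.74 at 4 weeks, 4.74 at 7 weeks, 8.23 at 8 weeks, 11.4 at 12 weeks, 18.9 at 16 weeks and 25.3 at 20 weeks. At 12 weeks its 6 libraries lay at 7.94, 11.4 and 15.7 CPM, against 0.501, 1.05 and 1.32 CPM at 0 days, and the groups did not overlap. The log2 fold change was 3.10 ± 0.43 at 8 weeks (edgeR, adjusted p = 2.26e-09) and 3.67 ± 0.43 at 12 weeks (edgeR, adjusted p = 9.33e-12). At 8 weeks Cd22 was the 1 member of 6 tested that rose, while 29% of all genes rose. At 3 days, 1 week and 4 weeks 0 of the 6 members were called by edgeR or by DESeq2, against 37.9%, 36.4% and 34% of all genes called in either direction. With an unadjusted p under 0.05 there was only Cd22 at 4 weeks (0.97 ± 0.43, edgeR, unadjusted p = 0.0257).

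**Figure D1:**
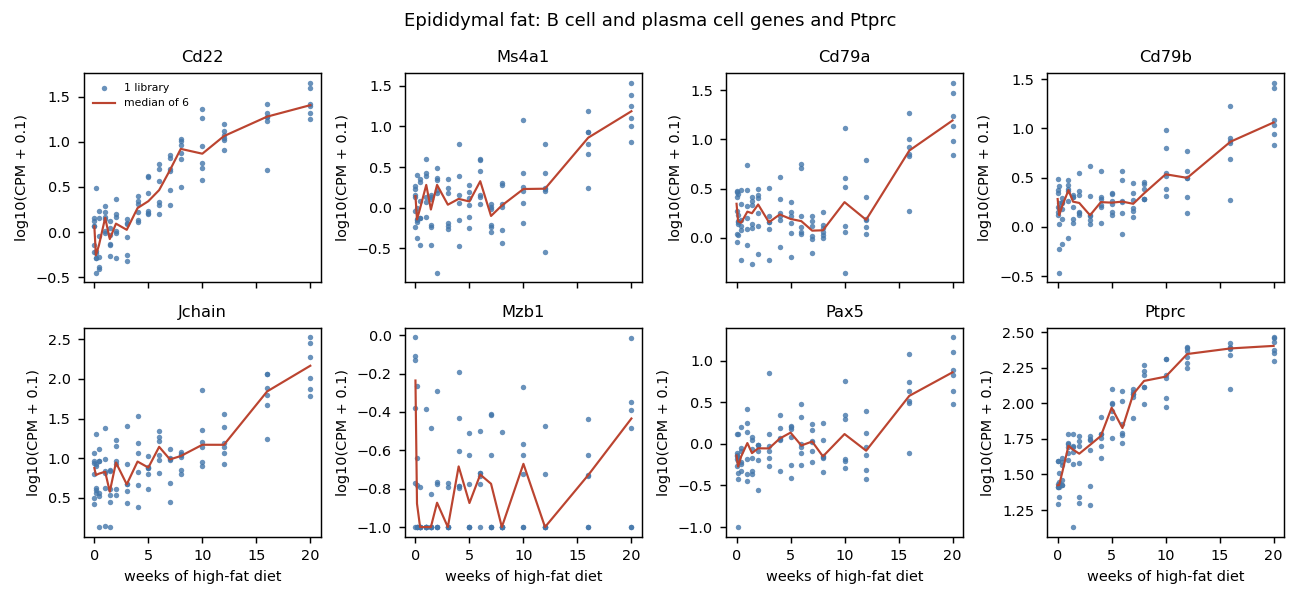
Level of each member and of Ptprc in eWAT as log10(CPM + 0.1) against weeks of high-fat diet; each point is 1 library and the line joins the medians of 6 libraries. Cd22 climbs from about 4 weeks to a median of 25.3 CPM at 20 weeks, while Ms4a1, Cd79a, Cd79b, Pax5 and Jchain climb mainly after 12 weeks and Mzb1 stays near 0.

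Ms4a1, which encodes the surface protein CD20, had 6.38, 15.3 and 34.5 CPM at 20 weeks, against 0.478, 1.29 and 1.76 CPM at 0 days. All 6 libraries at 20 weeks lay above all 6 at 0 days, whereas at 12 weeks the libraries spread from 0.181 to 5.98 CPM on both sides of the 0 day range. The log2 fold change was 0.98 ± 0.60 at 12 weeks (edgeR, adjusted p = 0.152), 2.63 ± 0.61 at 16 weeks (edgeR, adjusted p = 0.000137) and 3.88 ± 0.64 at 20 weeks (edgeR, adjusted p = 1.84e-07). The receptor subunit Cd79a had 6.85, 15.4 and 37.4 CPM at 20 weeks and 0.819, 2.12 and 2.86 CPM at 0 days, again without overlap. Its log2 fold change was 0.29 ± 0.52 at 12 weeks (edgeR, adjusted p = 0.646) and 3.29 ± 0.54 at 20 weeks (edgeR, adjusted p = 1.88e-07). Its partner Cd79b followed, with 6.65, 11.4 and 28.9 CPM at 20 weeks against 1.23, 1.81 and 2.99 CPM at 0 days (3.04 ± 0.42, edgeR, adjusted p = 1.95e-09). Pax5 was the lowest of the 5 that rose late, with 2.91, 7.16 and 19.1 CPM at 20 weeks and 0.438, 0.625 and 1.23 CPM at 0 days (3.69 ± 0.62, edgeR, adjusted p = 3.39e-07).

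Jchain, the joining chain of dimeric IgA and pentameric IgM, reached the highest level of the members in eWAT. It had 60.2, 147 and 336 CPM at 20 weeks, against 2.52, 7.41 and 11.6 CPM at 0 days, with no overlap and a log2 fold change of 4.69 ± 0.61 (edgeR, adjusted p = 3.08e-10). At 12 weeks it had 8.25, 14.7 and 36.0 CPM and the ranges of the groups overlapped. The change at 12 weeks, 1.49 ± 0.55 (edgeR, adjusted p = 0.016), lost its call without replicate 2 (1.15, adjusted p = 0.0559) or without replicate 6 (1.21, adjusted p = 0.0777). Mzb1, a chaperone of antibody assembly in plasma cells, had 0, 0.268 and 0.868 CPM at 20 weeks against 0, 0.481 and 0.876 CPM at 0 days, and did not pass the filter on low counts in eWAT, BAT or intestine. Of its exon bases 695 of 1215 are shared on the same strand with SPATA24 in the annotation, and reads in such a stretch may be counted for neither gene, so its level is uncertain.

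Over any time all 6 members tested in eWAT changed, beside 90.7% of all genes. With only the time points to 12 weeks tested, 4 of them changed. The share of all genes in that test is not given, so this count has no base to be read against. Of these 6, 2 rose at 12 weeks, when 31% of all genes rose, 6 rose at 16 weeks, when 30.9% did, and 6 rose at 20 weeks, when 31% did. Set directly against 12 weeks, the libraries at 20 weeks stood out more: 5 of the 6 members rose, with 1.4% of all genes rising. These were Jchain (3.20 ± 0.57), Pax5 (3.13 ± 0.61), Cd79a (3.00 ± 0.53), Ms4a1 (2.90 ± 0.61) and Cd79b (2.24 ± 0.41), with edgeR adjusted p between 0.000139 and 0.00152. Cd22 had 1.25 ± 0.38 (edgeR, adjusted p = 0.0615), which passed the threshold with the replicate block (1.28, adjusted p = 0.0488) and in DESeq2 (1.26, adjusted p = 0.0375). Without replicate 3 Ms4a1 fell short of it (2.52, adjusted p = 0.0648).

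Ptprc, which encodes CD45 and marks all leukocytes, rose with Cd22 to 12 weeks but not beyond. It had 197, 253 and 290 CPM at 20 weeks and 178, 222 and 248 CPM at 12 weeks, and these groups overlapped (0.15 ± 0.21, edgeR, adjusted p = 0.925). Against 0 days, where it had 19.7, 26.5 and 39.3 CPM, it rose by 2.96 ± 0.23 at 12 weeks (edgeR, adjusted p = 8.92e-20). On the log2 scale the ratio of Cd22 to Ptprc, with a pseudocount of 0.5 CPM, was -4.18 ± 0.30 at 12 weeks and -4.35 ± 0.37 at 0 days (SD, n = 6 each; difference 0.17, exact permutation p = 0.398). The ratio of Cd79a to Ptprc was -6.50 ± 0.89 at 12 weeks and -3.66 ± 0.59 at 0 days, a difference of -2.85 (exact permutation p = 0.00216, the smallest that 6 against 6 libraries can give, adjusted over 14 ratios to 0.00505). At 20 weeks the Cd79a ratio was -3.91 ± 0.83, with a difference of -0.25 from 0 days (exact permutation p = 0.541). Ms4a1, Cd79b and Pax5 likewise had differences at 20 weeks of 0.16, -0.53 and -0.35 that did not pass the threshold. For Cd22 the ratio at 20 weeks was -3.17 ± 0.41, higher by 1.18 than at 0 days without overlap (exact permutation p = 0.00216, adjusted p = 0.00505), although with a pseudocount of 2 this was 0.28 and no longer passed. The Jchain ratio was higher by 1.36 (exact permutation p = 0.0195, adjusted p = 0.0303), and that of Mzb1, itself near 0, differed by -3.32 (exact permutation p = 0.00216, adjusted p = 0.00505). These ratios move with the pseudocount and with the leukocyte gene used, and with Coro1a in place of Ptprc the Cd79a difference at 20 weeks was 1.41.

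The other B cell genes split along the same line. Of 22 B cell genes tested in eWAT, 21 rose at 20 weeks against 0 days with a median log2 fold change of 2.72, against -0.0044 over all genes, while at 12 weeks 8 rose with a median of 0.66. The 3 with the smallest p at 20 weeks were Btk (2.85 ± 0.21), Cd180 (3.69 ± 0.27) and Stap1 (4.25 ± 0.36), genes that myeloid cells also express, and they already stood at 2.82 ± 0.21, 3.83 ± 0.27 and 4.45 ± 0.36 at 12 weeks. Pou2af1, a coactivator of octamer-binding factors, and Spib, an ETS transcription factor, had 0.94 ± 0.54 and 0.31 ± 0.49 at 12 weeks, without a call, and rose by 4.07 ± 0.58 and 3.03 ± 0.50 at 20 weeks. Between 20 and 12 weeks 15 of the 22 rose, with a median of 1.68.

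Genes of the plasma cell moved less evenly. Of 13 tested, 7 rose and 2 fell at 20 weeks against 0 days, with a median of 0.94. Slamf7, a receptor of plasma cells and other leukocytes, rose by 3.75 ± 0.25, the secretory pathway gene Edem1 by 0.98 ± 0.09 and the survival factor receptor Tnfrsf13b by 1.86 ± 0.21. Irf4, a transcription factor of plasma cells that adipocytes also express, fell by 1.58 on the log2 scale. All 6 germinal centre genes tested rose (median 1.84), led by the migration receptor S1pr2 (1.93 ± 0.19), Gcsam (2.08 ± 0.36) and Rgs13 (4.36 ± 0.87). At 12 weeks 4 of the 6 had risen, with S1pr2 at 2.12 ± 0.19, and between 20 and 12 weeks S1pr2 had -0.20 ± 0.18 and 1 of the 6, Nuggc, rose (3.08 ± 0.80). The leading plasma cell genes were likewise at 3.51 ± 0.24 (Slamf7), 1.10 ± 0.09 (Edem1) and 1.51 ± 0.21 (Tnfrsf13b) at 12 weeks. Of the 13 plasma cell genes only Eaf2 rose between 20 and 12 weeks (0.96 ± 0.24, edgeR, adjusted p = 0.0111). Sdc1 fell by 0.79 (edgeR, adjusted p = 0.0185), and the others were not called. Of 8 genes of B cell attraction and survival 3 rose and 2 fell. Ltb, a lymphotoxin chain, rose by 1.80 ± 0.36, and Pigr, the epithelial carrier of IgA, fell by 3.38. The follicular chemokine Cxcl13, named because it was among the genes closest to Cd79b and Jchain, rose by 2.36 ± 0.74 (edgeR, adjusted p = 0.00443). Immunoglobulin genes themselves were not analysed here.

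T cell genes rose beside the late members, and macrophage genes beside Cd22. Between 20 and 12 weeks 11 of 14 T cell genes rose (median 1.99) and 0 of 11 macrophage genes (median 0.10), and between 12 weeks and 0 days 10 of 11 macrophage genes rose (median 1.9) with 4 of 14 T cell genes rising and 2 falling. The summed level of the T cell list ran from 33.6 to 118 CPM at 20 weeks, from 16.4 to 26.9 CPM at 12 weeks and from 20.4 to 38.2 CPM at 0 days. The summed macrophage list ran from 3350 to 4644 CPM at 20 weeks, from 2728 to 4895 CPM at 12 weeks and from 758 to 1015 CPM at 0 days, and no gene of either list was at 0 in any of these groups. Of 8 adipocyte genes 6 fell and Lep rose at 12 weeks against 0 days (median -1.40), with Cfd at -5.97 and Adipoq at -1.32, and 7 fell at 20 weeks (median -1.35). The summed adipocyte list ran from 7867 to 11277 CPM at 20 weeks, from 6874 to 14056 CPM at 12 weeks and from 24231 to 32247 CPM at 0 days. The epithelial gene Vil1, the 1 enterocyte gene tested, fell by 3.16 at 20 weeks and by 3.45 at 12 weeks. Within time points, over 96 libraries, Cd22 went with the mean of the macrophage list (Pearson r = 0.648, Spearman rho = 0.594, permutation adjusted p = 2.33e-05, the smallest the permutations can give after adjustment over 14 relations). For the other 6 members r with that list was between 0.0104 and 0.260, and 0 of them passed the threshold. With the T cell list 6 members passed it, r between 0.448 and 0.579, and Mzb1 (r = 0.207) did not. The part of these cells in the members' changes was not tested.

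Among the genes closest to the 7 members in eWAT, by mean Pearson r of deviations from the time point mean over 96 libraries, were Pou2af1 (0.628), Spib (0.612), Fcmr (0.553), H2-Ob (0.530), Cxcr5 (0.505) and Bank1 (0.504). Ms4a1 and Cd79a went closely together (r = 0.772), and so did Cd79a and Cd79b (r = 0.749). Cd22 was looser with them, at 0.571 with Ms4a1 and 0.410 with Jchain, and its own closest genes were Unc13d, Pik3cg and Fyb (0.684 to 0.695), which act in leukocytes generally. Mzb1 had r of 0.107 to 0.226 with the other members, and Kcnk5, Nek5 and Fam166b were its closest genes. In eWAT the counts for Mzb1 thus hardly went with those of the other members, but they were too low to pass the filter. In iWAT, over 84 libraries that differed in node tissue, its r with the other members was 0.652 to 0.762. In intestine it was 0.018 to 0.271.

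Node tissue was close to the limit of detection in eWAT. Glycam1 had 0, 0.406 and 1.53 CPM at 20 weeks, a sum of 41 counts in 6 libraries, against 0, 0 and 0.346 CPM at 0 days, a sum of 5 counts. Over 6 libraries Glycam1 summed to 3 counts at 12 weeks and 24 at 16 weeks. At 20 weeks Ms4a1 had a median of 15.3 CPM beside 0.406 CPM of Glycam1. In iWAT at 0 days the medians were 156 CPM for Ms4a1 and 126 CPM for Glycam1. The part of node tissue in the members' rise in eWAT was not tested. Of the other node genes in eWAT, Ccl21a fell by 1.67 at 20 weeks, Ccl19 had -1.05 ± 0.50 (edgeR, adjusted p = 0.06) and Chst4 rose by 1.85 ± 0.41. Within time points Glycam1 went with 5 of the 7 members (r between 0.387 and 0.475, n = 96), and most of its values there are 0. The library with the highest Glycam1, replicate 3 at 20 weeks, also had the most Cd22, Ms4a1, Cd79a, Cd79b and Pax5, and with replicate 3 left out of every time point all 6 members tested were still called at 20 weeks. At 16 weeks replicate 6 was the lowest library for all 6 of them and for Ptprc, with 4.78 CPM of Cd22, 1.62 of Ms4a1 and 126 of Ptprc.

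iWAT held the highest levels of Cd22, Ms4a1, Cd79a, Cd79b and Pax5 among the 13 organs at 0 days, and at 12 weeks they had fallen together with Glycam1. Ms4a1 had 0.257, 1.10 and 2.68 CPM at 12 weeks, against 66.1, 156 and 219 CPM at 0 days. Glycam1 had 0, 0 and 0.223 CPM at 12 weeks and 89.4, 126 and 286 CPM at 0 days. All 7 members fell at 12 weeks, when 23.1% of all genes fell. The log2 fold changes were -6.95 ± 1.66 for Cd79a, -6.74 ± 1.61 for Ms4a1, -6.55 ± 1.65 for Pax5, -6.30 ± 1.44 for Cd79b, -6.06 ± 1.5 for Cd22, -4.20 ± 1.21 for Jchain and -2.84 ± 1.04 for Mzb1, with edgeR adjusted p between 0.000251 and 0.0212. Mzb1 lost its call without replicate 1, 2 or 5 (adjusted p = 0.0915, 0.0671 and 0.0578). At 4 weeks 0 of 7 were called by edgeR or DESeq2, and 0 had an unadjusted p under 0.05, while 12.9% of all genes were called in either direction. Over any time all 7 changed, beside 65% of all genes, but 4 did without replicate 3 and 3 without replicate 4.

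The time points mixed pieces with and without node tissue. Of 84 iWAT libraries 54 had at least 1 CPM of Glycam1 and 30 had less, 27 of these with 0 counts. All 6 libraries at 0 days and all 6 at 1 day belonged to the first kind, 3 of 6 did at 3, 4, 8 and 10 weeks, and 0 of 6 at 12 weeks. Ms4a1 ran from 20.1 to 288 CPM in the 54 libraries and from 0 to 2.68 CPM in the 30, so the 2 kinds did not overlap. The same held for Cd22 (16.5 to 355 CPM, and 0.254 to 4.09 CPM), Cd79a (27.1 to 493, and 0.0656 to 4.46), Cd79b (20.7 to 436, and 0.525 to 2.83) and Pax5 (8.45 to 204, and 0 to 3.42). Jchain overlapped, with 3.34 to 295 CPM in the 54 libraries and 0.0656 to 5.86 CPM in the 30. Within the 30 the medians were 0.641 CPM for Ms4a1, 1.45 for Cd22 and 1.41 for Jchain, beside medians in eWAT at 0 days of 1.29, 1.05 and 7.41 CPM.

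**Figure D2:**
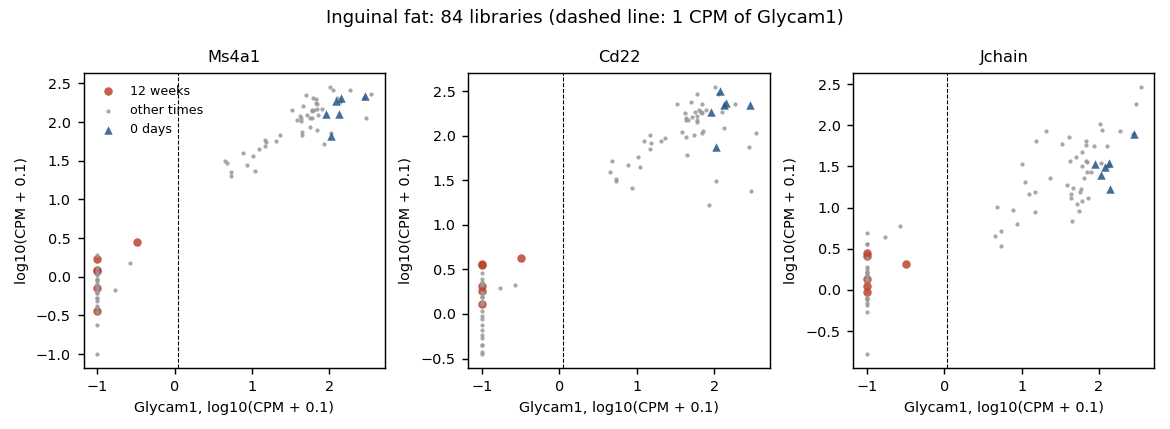
Ms4a1, Cd22 and Jchain against Glycam1 in 84 iWAT libraries, both axes as log10(CPM + 0.1), with libraries of 12 weeks, of the other times and of 0 days marked. The libraries fall into 2 clusters on either side of 1 CPM of Glycam1 (dashed line), and all 6 libraries at 12 weeks are in the low one.

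Among the 54 libraries with node tissue the members followed its amount to different degrees. Within time points Glycam1 had a Pearson r of 0.920 with Cd79b, 0.858 with Cd79a, 0.830 with Jchain, 0.699 with Mzb1 and 0.676 with Ms4a1 (permutation adjusted p = 2.8e-05 each, the smallest the permutations can give after adjustment over 14 relations). The Spearman rho of these 5 were 0.858, 0.816, 0.685, 0.596 and 0.629, and without the 2 libraries farthest in Glycam1 r was between 0.671 and 0.919. For Cd22 (r = 0.201, rho = 0.238) and Pax5 (r = 0.171, rho = 0.163) the relation did not pass the threshold. Among the libraries under 1 CPM 0 of 7 relations did, with r between 0.270 and 0.765 (n = 26, at time points with more than 1 such library). Of all 30 such libraries 27 had 0 counts of Glycam1, so this test could hardly detect a relation. Since the libraries form 2 clusters, no test of the relation over both is given, and these clusters were defined after seeing the data.

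With log2 Glycam1 as a covariate the 12 week coefficient changed sign for all 7 members. It was 1.69 ± 0.56 for Cd22 (edgeR, adjusted p = 0.0227), 1.49 ± 0.44 for Ms4a1 (edgeR, adjusted p = 0.00872), 1.48 ± 0.36 for Cd79a (edgeR, adjusted p = 0.00121) and 0.89 ± 0.25 for Cd79b (edgeR, adjusted p = 0.00615). Jchain (1.01 ± 0.71), Mzb1 (1.74 ± 0.93) and Pax5 (1.82 ± 0.71) did not pass the threshold, so that 4 of 7 were higher, beside 11.2% of all genes. This count fell to 2 without replicate 2 and to 1 without replicate 6, and the covariate is at its lowest value in all libraries at 12 weeks but 1. Glycam1 did not overlap between 12 weeks and 0 days, so the coefficients rest on a slope fitted over all time points. They cannot separate time on the diet from node tissue. The log2 change per log2 unit of Glycam1 was 0.91 ± 0.05 for Pax5, 0.87 ± 0.03 for Ms4a1, 0.82 ± 0.04 for Cd22, 0.75 ± 0.02 for Cd79b, 0.54 ± 0.04 for Jchain and 0.48 ± 0.05 for Mzb1. Each slope was fitted over all 84 libraries, so it holds the gap between the 2 clusters, and no test of it is given. Among the 54 libraries with node tissue the relation of Pax5 and Cd22 with Glycam1 did not pass the threshold.

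Other genes of lymph node fell with the members in iWAT. Of 23 B cell genes 22 fell at 12 weeks (median -5.79), with Cd37 at -3.04 ± 0.60, Siglecg at -5.84 ± 1.21 and Bank1 at -4.26 ± 0.90. All 5 genes of node vessels and stroma fell (median -7.39), as did 14 of 14 T cell genes (median -5.55), while 6 of 11 macrophage genes rose and 0 fell. The summed node list ran from 3.2 to 7.66 CPM at 12 weeks and from 363 to 1084 CPM at 0 days. Skeletal muscle genes varied strongly between pieces, with a sum of 5615 to 25662 CPM at 12 weeks and 9.68 to 27600.3 CPM at 0 days, and their part was not tested. Glycam1 had the highest mean r with the members of all genes in iWAT (0.930), followed by H2-Ob (0.928), H2-DMb2 (0.928), Fcrla (0.927), Apol7c (0.926), Blk (0.926), Tnfrsf13c (0.925) and Fcmr (0.923), over 84 libraries that include both clusters.

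In BAT the members were near the limit of detection and no change was detectable at this depth. Cd79a had 0.298, 0.743 and 1.29 CPM at 12 weeks, against 0.387, 0.982 and 1.88 CPM at 0 days. Jchain had 0.198, 0.323 and 0.458 CPM at 12 weeks and 0.150, 0.38 and 1.24 CPM at 0 days. The groups overlapped for both. Of 4 members that passed the filter 0 were called at 4 weeks, at 12 weeks or over any time by edgeR, where 14.7%, 27.6% and 65.7% of all genes were, 0 had an unadjusted p under 0.05, and DESeq2 called 0. The log2 fold changes at 12 weeks were -0.58 ± 0.57 for Jchain, -0.50 ± 0.43 for Cd79a, 0.50 ± 0.45 for Cd79b and -0.06 ± 0.52 for Cd22. In simulated data of this comparison 98.5% of 4-fold and 46.3% of 1.5-fold changes were recovered. The changed genes were drawn at random from all genes kept, so these shares need not hold for genes as low as the members. Glycam1 had 5 counts over all 84 libraries.

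In the small intestine Jchain was the member that moved most, and the mature B cell markers Ms4a1 and Pax5 did not change detectably. Jchain had 524, 823 and 892 CPM at 12 weeks, against 158, 287 and 430 CPM at 0 days, and all 6 later libraries lay above the earlier ones (1.32 ± 0.15, edgeR, adjusted p = 4.93e-11). Its medians were 287 CPM at 0 days, 289 at 1 week, 224 at 10 days, 307 at 2 weeks, 514 at 3 weeks, 515 at 4 weeks, 673 at 5 weeks, 742 at 8 weeks and 823 at 12 weeks. The step lay between 2 and 3 weeks, where the ranges, 196 to 466 and 436 to 588 CPM, just overlapped.

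Cd79a had 6.65, 10.9 and 14 CPM at 12 weeks and 4.13, 4.73 and 5.95 CPM at 0 days, again without overlap (1.05 ± 0.18, edgeR, adjusted p = 2.36e-06). Cd79b had 4.07, 5.97 and 7.53 CPM at 12 weeks and 2.78, 3.20 and 4.48 CPM at 0 days, where the ranges overlapped (0.65 ± 0.15, edgeR, adjusted p = 0.000199). Ms4a1 had 3.33, 4.99 and 6.43 CPM at 12 weeks, against 3.72, 4.90 and 5.93 CPM at 0 days (-0.05 ± 0.23), Pax5 had a log2 fold change of -0.07 ± 0.23 and Cd22 of 0.25 ± 0.16. Thus 3 of 6 members rose at 12 weeks, beside 19.8% of all genes, and over any time 4 of 6 changed (Cd22, Cd79a, Cd79b and Jchain), beside 68.6%. At 1 day and 1 week 0 of 6 were called by edgeR or DESeq2, beside 23.5% and 27% of all genes, and only Pax5 at 1 day had an unadjusted p under 0.05 (-0.51 ± 0.25, edgeR, unadjusted p = 0.0447).

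**Figure D3:**
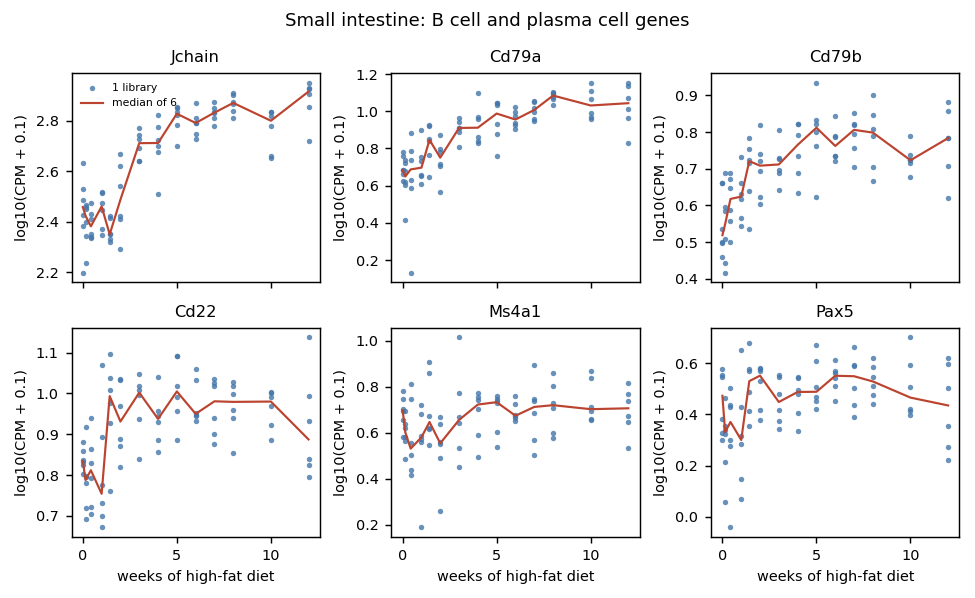
Level of 6 members in small intestine as log10(CPM + 0.1) against weeks of high-fat diet; each point is 1 library and the line joins the medians of 6 libraries. Jchain steps up at 3 weeks, to a median of 514 CPM, and Cd79a follows more gradually, while Ms4a1 and Pax5 show no trend.

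Of 13 plasma cell genes 8 rose and 2 fell in the intestine at 12 weeks, with a median of 0.36 beside 0.02 over all genes. Tnfrsf13b rose by 0.89 ± 0.14 and Tnfrsf17, the BCMA receptor of plasma cells, by 1.46 ± 0.33, and Edem1 fell by 0.18. Of 23 B cell genes 8 rose and 2 fell (median 0.29): Pou2af1, which plasma cells also use, rose by 0.97 ± 0.15 and Blnk, an adaptor of the receptor, by 0.43 ± 0.07, and Ralgps2 fell by 0.27. Of 8 attraction and survival genes 6 rose and 1 fell. Ltb rose by 0.89 ± 0.19, the survival factor Tnfsf13 by 0.61 ± 0.12, and the chemokine Ccl25, which draws IgA cells to the small intestine, fell by 0.34.

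Other genes that can mark tissue in or around the intestinal pieces moved as well. Gp2, a receptor of the M cells over lymphoid follicles that the exocrine pancreas also makes, fell by 4.48. It was the 1 gene of 3 of follicle epithelium that was called, beside Tnfaip2 at 0.27 and Ccl20 at 0.20, and the summed level of that list ran from 13.3 to 27.1 CPM at 12 weeks and from 96.5 to 220 CPM at 0 days. Of 3 node genes tested Ccl21a (1.23 ± 0.13) and Madcam1 (1.32 ± 0.26) rose. Of 8 adipocyte genes 3 fell, Cfd by 6.40, Plin1 by 3.55 and Adipoq by 3.34, and Lipe rose by 0.21, while the summed level of the list ran from 398 to 423 CPM at 12 weeks and from 356 to 440 CPM at 0 days. The part of these in the members' changes was not tested. Of 14 T cell genes 6 rose and 1 fell, and of 11 macrophage genes 9 rose. Within time points Jchain hardly went with Ms4a1 (r = 0.0687) or Cd22 (r = 0.0829) over 84 libraries, and its closest genes were Trp53inp1, Lax1 and Pou2af1 (0.556 to 0.639), whereas Cd79a went with Pax5 (r = 0.659). Among the genes closest to the members as a group were Mfge8 (0.420), Cxcr4 (0.390), Tnfrsf13c (0.366), Slamf6 (0.360), Arhgap45 (0.354), Ets1 (0.353) and Ly6d (0.351).

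Differences between organs were tested as interactions at 12 weeks, the last time point that all organs share. The change in eWAT exceeded that in iWAT for 6 of 7 members, beside 19% of all genes, by 9.67 ± 1.52 for Cd22, 7.67 ± 1.62 for Ms4a1, 7.19 ± 1.6 for Cd79a, 7.06 ± 1.75 for Pax5, 7.04 ± 1.40 for Cd79b and 5.63 ± 1.29 for Jchain (edgeR, adjusted p between 7.86e-08 and 0.000547), and the iWAT side of it moved with Glycam1 as given above. Against BAT only Cd22 differed among 6 members tested (3.71 ± 0.68, edgeR, adjusted p = 2.83e-06), beside 19.6% of all genes, and Jchain had 2.03 ± 0.87 (edgeR, adjusted p = 0.053). Against intestine Cd22 was again the 1 of 6 that differed (3.41 ± 0.43, edgeR, adjusted p = 8.91e-12), beside 52% of all genes in either direction. There Jchain had 0.15 ± 0.54 (edgeR, adjusted p = 0.847). Ptprc differed in the same way, by 5.24 ± 0.72 from iWAT, 2.46 ± 0.38 from BAT and 2.80 ± 0.23 from intestine.

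**Figure D4:**
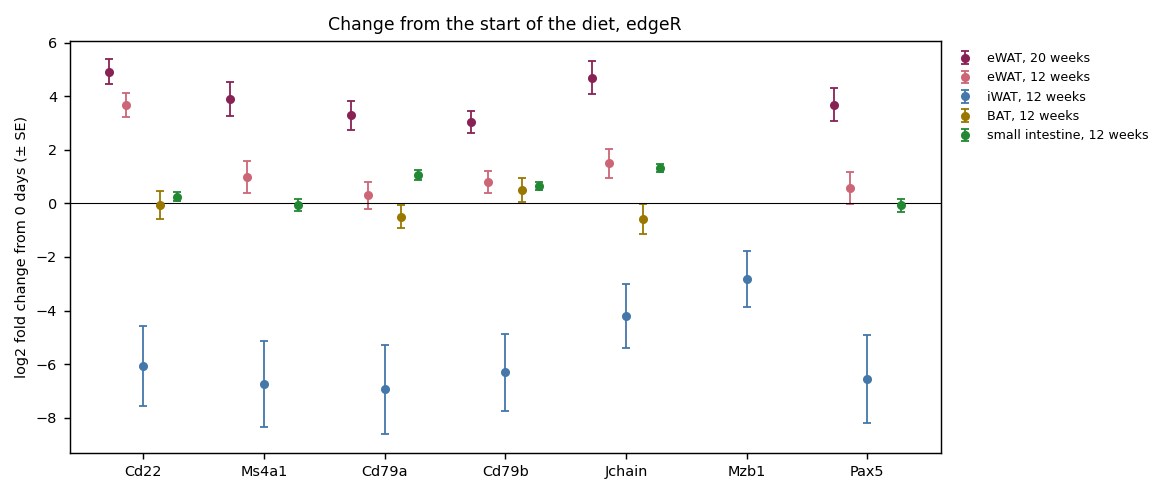
Log2 fold change from 0 days ± SE of each member in eWAT at 20 and 12 weeks and in iWAT, BAT and small intestine at 12 weeks; only members that passed the filter in an organ are drawn. In eWAT Cd22 is already at 3.67 at 12 weeks, iWAT lies between -6.95 and -2.84, and in intestine only Jchain, Cd79a and Cd79b rose.

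Over the 13 organs at 0 days Cd22, Ms4a1, Cd79a and Pax5 shared the first and second organ but not the order below them. Cd22 had medians of 220 CPM in iWAT, 6.74 in intestine and 1.05 in eWAT, and neither iWAT nor intestine overlapped with the next organ in the order, while eWAT overlapped with liver (0.996 CPM). Ms4a1, Cd79a and Pax5 also had iWAT first and intestine second. Jchain was highest in intestine, at 287 CPM, then iWAT (32.2 CPM), eWAT (7.41 CPM) and pancreas (3.66 CPM), of which the last 2 overlapped. Mzb1 had a median of at most 0.541 CPM in every organ, highest in gastrocnemius muscle, and all neighbours in its order overlapped. In that muscle Ms4a1 had a median of 0.0298 CPM and Cd79a of 0.143 CPM, although 1 library there held 17.3 CPM of Cd22, 14.5 CPM of Cd79a and 6.93 CPM of Glycam1. Cd79b had its second highest level in the pituitary gland, with 8.44, 11.9 and 13.0 CPM at 0 days, where Cd79a had a median of 1.15 CPM.

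**Figure D5:**
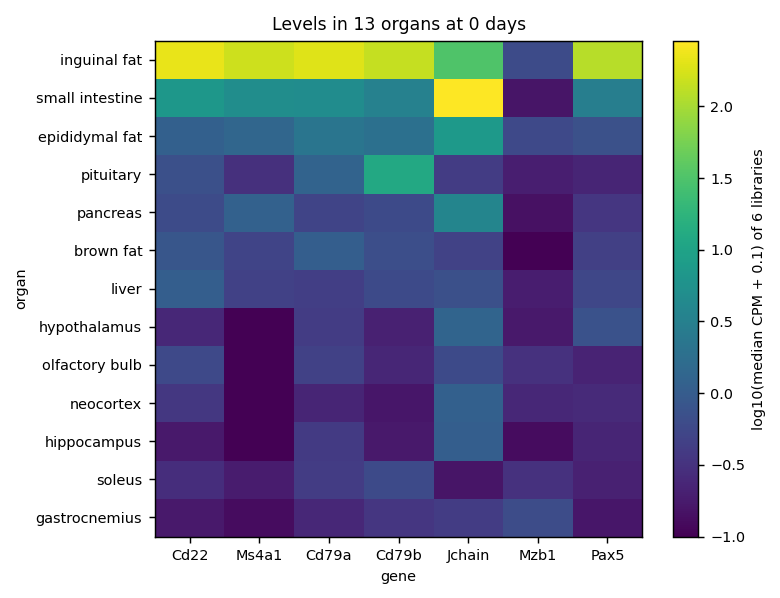
Median level of each member in 13 organs at 0 days, 6 libraries each, as log10(median CPM + 0.1) by colour, with organs in order of their mean over the members. Inguinal fat and small intestine lead, Jchain is brightest in small intestine at 287 CPM, and Cd79b alone stands out in the pituitary at 11.9 CPM.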

How the data were processed

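Poly(A) RNA of the 4 organs was read at every time point, in 96 libraries of eWAT and 84 of each of iWAT, BAT and small intestine, and the other 9 organs at 12 weeks and 0 days, so that 456 libraries entered and 648 library columns were not used. The deposited table holds whole-number counts per gene, not normalized, for 20646 genes; the authors trimmed, aligned and counted the reads with Trimmomatic 0.38, HISAT2 2.1.0, SAMtools 1.9 and featureCounts 1.6.3, on build GRCm38/mm10, per the submitters' processing notes. No label or header used here names the annotation or the strand option of featureCounts. Exons of Cd22 and Pax5 overlap antisense genes (479 of 5042 bases for Cd22 with Gm29439, and 636 and 125 of 8853 bases for Pax5 with 5730488B01Rik and Gm12462), whose reads cannot be told apart from theirs without strand. Gene positions are from GENCODE M21, in which 20319 symbols matched.

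Counts were fitted per organ with edgeR 4.0.16 in R 4.3.3 (TMM, filterByExpr, quasi-likelihood F-test, 1 coefficient per time point, all libraries of the organ), with Benjamini-Hochberg adjustment over the genes kept (15225 in eWAT, 14704 in iWAT, 13196 in BAT, 14345 in intestine) and a threshold of 0.05. SE is the log2 fold change over the root of F. For iWAT a second fit added log2 CPM of Glycam1 (prior count 2), and organs were compared by interactions. Ratios to Ptprc used an exact permutation test, 2-sided; relations used 100000 permutations of deviations from time point means, 2-sided. DESeq2 1.42.0, RLE size factors, no filter, a replicate block, the 2 time points alone, each replicate number left out, other pseudocounts, another leukocyte gene and another node measure were alternatives. Other steps ran in Python 3.11.15 with scipy 1.17.1.

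The members and gene lists were chosen with earlier results of these data known. Named are the 7 members, Glycam1 and Ptprc, up to 3 genes of each list with the smallest p in eWAT at 20 weeks and in the other organs at 12 weeks, and the 8 genes with the highest mean r with the members, of which some are not reported here. Other node genes, Irf4, Eaf2, Sdc1, Cxcl13, genes closest to a single member and the neighbours of Cd79b were chosen after their values were seen. So were the 2 clusters of iWAT libraries, the relations with the macrophage and T cell lists and the test of times to 12 weeks. The labels number the replicates without saying that a number marks an animal, and p-values measure the spread between these libraries. No 2 libraries were nearly identical (lowest chi-square per degree of freedom 3.23 to 5.74 by organ). Simulated counts held 200 changed genes, drawn at random from all genes kept. In them the fit recovered 40.3%, 68.7% and 97.0% of 1.5-, 2- and 4-fold changes in eWAT at 20 weeks, with 7.43% false calls. Counts stand for reads, and the floor of 3 counts covers counting error only.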

Additional observations from a re-analysis of the deposited data

Results flagged for a closer look

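In 6 of the 77 groups examined for the members, each of 6 libraries, 1 library stood apart by more than Dixon's 95% critical value. These were Cd79a in eWAT at 12 weeks (replicate 6, 6.11 CPM), Mzb1 in eWAT at 8 weeks (replicate 1, 0.215 CPM), Pax5 in eWAT at 0 days (replicate 2, 1.23 CPM), Jchain in iWAT at 0 days (replicate 1, 77.4 CPM), Mzb1 in BAT at 12 weeks (replicate 3, 0.0990 CPM) and Mzb1 in intestine at 0 days (replicate 4, 0.343 CPM). The eWAT library with 6.11 CPM of Cd79a also had the most Ms4a1 (5.98 CPM), Cd79b (5.77 CPM) and Pax5 (2.40 CPM) at 12 weeks, with 0.0687 CPM of Glycam1 and the lowest Ptprc of its group (178 CPM).

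The change at 12 weeks differed between organs by the test of the interaction (edgeR, adjusted p under 0.05). In eWAT minus iWAT the log2 difference was 9.67 for Cd22, 7.67 for Ms4a1, 7.19 for Cd79a, 7.06 for Pax5, 7.04 for Cd79b and 5.63 for Jchain. For Cd22 it was 3.71 in eWAT minus BAT and 3.41 in eWAT minus intestine.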

How the results depend on the processing

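Over these alternatives 221 recomputed counts of members stayed within 1.5 times the reported one and 11 did not. Of recomputed single values 576 kept their direction and their side of the threshold, 12 changed sign, 16 lost the threshold and 11 passed it. Without the filter on low counts Mzb1 entered and was called lower in eWAT at 3 days (-4.36), 8 weeks (-3.15) and 12 weeks (-2.75) and in the interaction of eWAT with intestine (-3.92). The members called became 1 at 3 days, 2 at 8 weeks and 2 in that interaction. With the 2 time points alone 1 member was called in eWAT at 4 weeks. Leaving out each replicate gave 1 to 2 members in eWAT at 12 weeks, 4 to 6 between 20 and 12 weeks, 3 to 7 in iWAT over any time and 1 to 5 in iWAT with Glycam1 as covariate. Among iWAT libraries below 1 CPM of Glycam1, most of which had 0 counts of it, 0 relations passed, a split chosen after seeing the data.

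Leaving out a replicate turned uncalled log2 changes at 12 weeks, with ranges of -0.48 to 0.54 for Cd79a and -0.0035 to 0.71 for Pax5 in eWAT, -0.39 to 0.25 for Cd22 in BAT (0.25 without replicate 3, 0.026 without replicate 4) and -0.30 to 0.038 for Pax5 in intestine. Differences of ratios to Ptprc turned to 0.17 for Pax5 at 20 weeks with a pseudocount of 0.1, and with a pseudocount of 2 to -0.64 for Cd22 at 12 weeks and -0.58 for Ms4a1 at 20 weeks. With Coro1a they turned to 1.41 for Cd79a, 1.13 for Cd79b and 1.32 for Pax5 at 20 weeks and to 0.019 for Jchain at 12 weeks. The cause was not tested.

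With the replicate block 6 members were called between 20 and 12 weeks in eWAT, against 5 without it, and it changed no other call. Libraries of the same number hardly went together, with a correlation of their deviations from -0.38 to 0.22 over organs, which cannot show whether a number marks an animal. The interactions between organs treated all libraries as independent, although organs may come from the same mice. At about 13.5 counts per CPM, Mzb1 in every organ and all members in BAT rest on few counts.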

Other observations

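In the pituitary gland Cd79b had 4.68, 7.98 and 9.13 CPM at 12 weeks (lowest, median and highest of 6 libraries) and 8.44, 11.9 and 13.0 CPM at 0 days, beside Cd79a medians of 1.27 and 1.15 CPM. On chromosome 11 its nearest annotated gene is the sodium channel Scn4a, 3830 bases away (9.84 CPM in pituitary at 0 days), and the growth hormone gene Gh lies 9476 bases away, with 158096 CPM. Scn4a and Gh lie on the minus strand like Cd79b, Scn4a upstream of it and Gh downstream. Whether reads of either gene reach the Cd79b exons was not tested.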
